A study of Mus musculus with 8 samples.

Results

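The genes described here are the mouse Hox genes of clusters a, b, c and d, taken as every array probe whose annotated symbol is Hox, a cluster letter and a paralog number. The rule found 57 probes for 38 genes, among 45281 probes and 19057 named genes on the array. Cluster a held 10 genes with 19 probes, cluster b 10 genes with 15 probes, cluster c 9 genes with 11 probes and cluster d 9 genes with 12 probes. Their annotated genes span chr6:52162417-52260880 (a), chr11:96194316-96368254 (b), chr15:102921131-103036856 (c) and chr2:74668225-74765142 (d) in build GRCm38.p6. RNA came from primary mouse embryonic fibroblasts (MEFs), a mixed culture of connective-tissue cells grown out of whole embryos, and was hybridised to 1-colour Illumina BeadArrays, on which each gene is read as the brightness of 1 or more short probes. The study set 3 knockout genotypes against wild type, with 2 arrays each: Gadd45a-/-, Ing1-/-, the double knockout of Ing1 and Gadd45a (DKO), and WT. All embryos were male, of the C57BL/6 strain and at stage E15.5, and confluent cultures were harvested at passage 3. Gadd45a encodes a stress-response protein that has been linked to active DNA demethylation, and Ing1 encodes a reader of trimethylated histone H3 lysine 4. The design describes duplicate arrays per MEF line, and the labels do not say whether a genotype's arrays share a line. If they do, genotype and line cannot be told apart, and every p-value below measures only how far these arrays spread.

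Hox genes encode homeodomain transcription factors that give cells their position along the body axis and along the limb. They lie in clusters in which the order of the genes along the chromosome follows the order of their expression domains, with low paralog numbers in anterior and high numbers in posterior tissue. Fibroblasts keep a Hox profile of their site of origin in culture, and Polycomb and Trithorax proteins maintain the silent and active states of the clusters.

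The 8 arrays were alike in quality, with 14277 to 14778 probes above background each (detection p under 0.01) and a correlation between the arrays of a genotype of 0.988 or more. The Gadd45a probes went against the label. Probe 1 for Gadd45a read 11.80 and 11.83 in the arrays labelled Gadd45a-/-, 10.12 and 10.15 in Ing1-/-, 11.80 and 11.69 in DKO, and 10.93 and 10.71 in WT (log2 normalized intensity), so it was brighter in both genotypes labelled as lacking the gene. A probe outside the deleted part checks nothing, and the sources used here do not place the deletions. The Ing1 probe was above background on no array. All 14 fibroblast markers were measured, and their summed intensity was 128244 to 138694 in Gadd45a-/-, 138570 to 145717 in Ing1-/-, 125575 to 132045 in DKO and 148343 to 153556 in WT, lower in every knockout array than in WT. Limma called 1 of the 14 lower in Gadd45a-/-, 0 in Ing1-/- and 1 in DKO, beside 1.33%, 0.417% and 3.8% of all probes. Their median log2 fold change was -0.19, -0.09 and -0.29 in these genotypes, and the highest was 0.17, 0.13 and 0.32. Of 13 macrophage and blood markers 5 were measured, summing to 1120 to 1190 in Gadd45a-/-, 798 to 947 in Ing1-/-, 490 to 491 in DKO and 491 to 529 in WT. All 5 were called higher than WT in Gadd45a-/- by limma, 1 in Ing1-/- and 0 in DKO, beside 1.33%, 0.417% and 3.8% of all probes called. Ptprc, Adgre1, Tyrobp and Hba-a1 of the same list were above background on no array. The 4 measured of 9 epithelial markers summed to 413 to 438 in Gadd45a-/-, 309 to 325 in Ing1-/-, 530 to 534 in DKO and 219 to 272 in WT, with Krt5, Krt14 and Epcam above background on no array. Not all 4 were above background on both WT arrays, so some difference was built into their selection. Limma called 2 of the 4 higher in Gadd45a-/-, 0 in Ing1-/- and 3 in DKO, beside 1.33%, 0.417% and 3.8% of all probes. Their lowest log2 fold change was -0.24, -0.22 and -0.42 in these genotypes. The 4 measured of 10 cartilage markers summed to 2945 to 3051 in Gadd45a-/-, 1989 to 2239 in Ing1-/-, 2077 to 2384 in DKO and 2065 to 2183 in WT. Among them the cartilage collagen gene Col2a1 was called higher in all 3 knockouts (probe 1). Its log2 fold change was 3.81 in Gadd45a-/-, 1.29 in Ing1-/- and 2.99 in DKO (limma adjusted p = 3.52e-05, 0.00957 and 0.000114). Of the 4 genes 2 were called higher in Gadd45a-/- and 1 each in Ing1-/- and DKO. The lowest log2 fold change among them was -0.15, -0.10 and -0.38 in these genotypes. Of 7 endothelial markers 1 was measured, Emcn, and the other 6 were above background on no array. Emcn was above background on all knockout arrays and no WT array, so some difference from WT was built into its selection. It was called higher in Ing1-/- (limma adjusted p = 0.0252) and DKO (0.00409) but not in Gadd45a-/- (0.0800). The 4 measured of 8 neural markers summed to 983 to 1006 in WT. They summed to 1186 to 1320 in Gadd45a-/-, 1014 to 1102 in Ing1-/- and 1159 to 1321 in DKO. Limma called 1 lower in Ing1-/-, and 1 higher and 1 lower in DKO, beside 0.417% and 3.8% of all probes. The 3 measured of 8 skeletal muscle markers summed to 3806.5 to 4097 in DKO and 2956 to 3268 in WT. Their sums in both single knockouts overlapped WT, and 0 were called. In such cultures fewer cells of a type and less RNA per cell cannot be told apart, and the part of these shifts in the Hox differences below was not tested.

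The promoters of the 4 Hox genes whose probes passed the test in any comparison are shown first, because Gadd45a has been linked to demethylation of CpG dinucleotides. They run over 250 bases before and 50 bases after the annotated start (RefSeq, build GRCm38.p6) and are printed in the direction of transcription, with each CG dinucleotide in capitals. Hoxa2 lies at chr6:52164782-52165081, Hoxa5 at chr6:52204538-52204837 and Hoxa7 at chr6:52218524-52218823, all on the minus strand, and Hoxd8 lies at chr2:74704365-74704664 on the plus strand.
Hoxa2 promoter: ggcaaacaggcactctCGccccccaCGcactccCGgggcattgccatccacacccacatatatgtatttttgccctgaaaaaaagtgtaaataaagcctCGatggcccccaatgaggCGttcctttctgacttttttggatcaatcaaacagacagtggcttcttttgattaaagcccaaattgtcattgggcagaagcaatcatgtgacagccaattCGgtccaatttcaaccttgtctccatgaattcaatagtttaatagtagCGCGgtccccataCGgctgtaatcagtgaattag
Hoxa5 promoter: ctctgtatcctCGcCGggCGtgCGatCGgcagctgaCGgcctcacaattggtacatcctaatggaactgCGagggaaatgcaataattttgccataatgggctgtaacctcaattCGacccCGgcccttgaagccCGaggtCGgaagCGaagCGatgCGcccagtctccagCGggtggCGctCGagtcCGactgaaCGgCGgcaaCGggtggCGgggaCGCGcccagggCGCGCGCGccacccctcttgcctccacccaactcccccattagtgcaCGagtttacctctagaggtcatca
Hoxa7 promoter: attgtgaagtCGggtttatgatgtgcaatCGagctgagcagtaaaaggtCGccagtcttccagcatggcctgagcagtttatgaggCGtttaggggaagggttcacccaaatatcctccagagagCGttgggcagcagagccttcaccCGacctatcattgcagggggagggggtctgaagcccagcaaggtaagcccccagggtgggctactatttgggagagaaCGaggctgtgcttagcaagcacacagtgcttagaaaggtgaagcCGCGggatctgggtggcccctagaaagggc
Hoxd8 promoter: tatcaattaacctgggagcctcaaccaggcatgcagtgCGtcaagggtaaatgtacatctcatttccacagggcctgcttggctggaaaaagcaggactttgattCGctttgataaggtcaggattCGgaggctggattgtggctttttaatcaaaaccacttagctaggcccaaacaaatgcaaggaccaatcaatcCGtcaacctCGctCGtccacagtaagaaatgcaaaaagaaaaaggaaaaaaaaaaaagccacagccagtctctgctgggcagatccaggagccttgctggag
The Hoxa5 window held 29 CG dinucleotides, the Hoxa2 and Hoxa7 windows 9 each and the Hoxd8 window 6. The table held 24 promoters of 22 of the 38 Hox genes, with a median of 14.5 CG dinucleotides, against a median of 7 over all 32851 promoters in it. The Hoxa5 promoter was thus denser in CpG than the median Hox promoter, and the other 3 were sparser. On either strand, the paired site of PBX and HOX proteins (TGATTNAT) matched at bases 140 to 147 of the Hoxa2 window, a motif found in 3.22% of all promoters. The CCAAT box (37.4% of all promoters) matched 4 times in the Hoxa2 window, 1 time each in Hoxa5 and Hoxd8 and not in Hoxa7. The retinoic acid receptor motif AGGTCA (16.3% of all promoters) matched at bases 292 to 297 of Hoxa5 and bases 116 to 121 of Hoxd8. The GC box (GGGCGG), the TATA box (TATAAA) and the homeodomain core (TAATTA), found in 35.7%, 13.6% and 5.29% of all promoters, matched in none of the 4 windows. Among the 24 Hox promoters the paired site was found in 8.33%, the CCAAT box in 62.5% and AGGTCA in 29.2%. The GC box, the TATA box and the homeodomain core were found in 41.7%, 16.7% and 8.33% of them. These matches describe the letters only, and methylation was not measured on these arrays.

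Of the 38 Hox genes, 14 were above background on all 8 arrays, 19 on no array and 5 on some arrays. Cluster b had the most, with Hoxb2, Hoxb4, Hoxb5, Hoxb6, Hoxb7 and Hoxb9 above background everywhere. Cluster c contributed Hoxc6, Hoxc9 and Hoxc10, cluster d Hoxd4, Hoxd8 and Hoxd9, and cluster a only Hoxa5 and Hoxa7. By paralog number the genes on all 8 arrays ran over groups 2 to 10, and none of groups 1, 3, 11, 12 and 13 was among them. Genes at the posterior end (groups 11 to 13), which pattern the distal limb and the tail end of the body, were above background on no array apart from Hoxa13 on 6 and Hoxc13 on 3 arrays. Hoxa13 rested on 1 of its 3 probes, since the others were above background on no array.

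**Figure D1:**
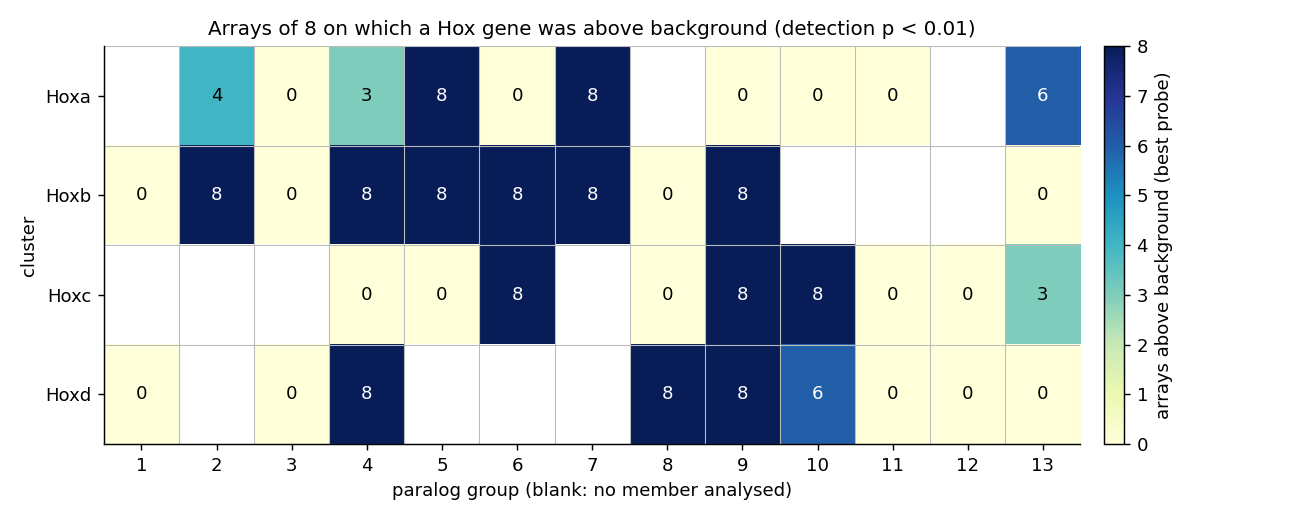
Number of the 8 arrays on which each Hox gene was above background, by cluster (rows) and paralog group (columns), taking the best probe of each gene. The 14 genes at 8 arrays lie in groups 2 to 10, and blank cells have no member analysed.

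The number of Hox genes above background in both arrays was 15 in Gadd45a-/-, 17 in Ing1-/-, 16 in DKO and 15 in WT. The changes between genotypes came from genes near the background. Hoxd10, which acts in hindlimb motor neurons, was above background on all 6 knockout arrays and on no WT array. Hoxa2, which patterns the hindbrain and the second pharyngeal arch, was above background on 2 Ing1-/- and 2 WT arrays only. Hoxa4 and Hoxc13 each passed on 1 array of every knockout genotype and on no WT array, which left them untested.

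Of the 57 Hox probes, 21 probes of 17 genes entered the test, having passed background in both arrays of at least 1 genotype, and 16 of the 21 were above background on all 8 arrays. The 3 comparisons with WT share the same 2 WT arrays, so they are not independent of each other. At an adjusted p under 0.05 (limma, Benjamini-Hochberg over 14867 probes), 2 of 21 Hox probes were called in Gadd45a-/- against WT, both higher (9.52%, against 1.33% of all probes tested). In Ing1-/- against WT 1 Hox probe was called, lower (4.76%, against 0.417% of all probes). That probe, for Hoxa2, was above background in the 2 WT arrays alone and so had to be lower elsewhere to some degree. It also counts in the comparison of DKO with WT. In DKO against WT 2 Hox probes were called higher and 2 lower (19.0%, against 3.8% of all probes). The called genes were Hoxa5 and Hoxa7 (higher in Gadd45a-/- and in DKO), Hoxa2 (lower in Ing1-/- and in DKO) and Hoxd8 (lower in DKO). Among the 16 probes on all 8 arrays the counts were 2, 0 and 3, against 1.09%, 0.247% and 3.17% of all such probes in the same 3 comparisons. At an unadjusted p under 0.05 limma gave 9, 8 and 8 of the 21 probes, beside 12.4%, 10.7% and 15.7% of all probes. Counting arrays alone, 8 probes were higher and 4 lower in both Gadd45a-/- arrays than in both WT arrays (beside 21.6% and 17.9% of all probes). In Ing1-/- 9 were higher and 4 lower (beside 21.8% and 17.3%), and in DKO 7 were higher and 9 lower (beside 23.7% and 22.1%). Leaving out 1 array at a time gave 0 to 1, 0 and 1 to 4 called Hox probes in the 3 comparisons, with 1 in DKO against WT without either DKO array.

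**Figure D2:**
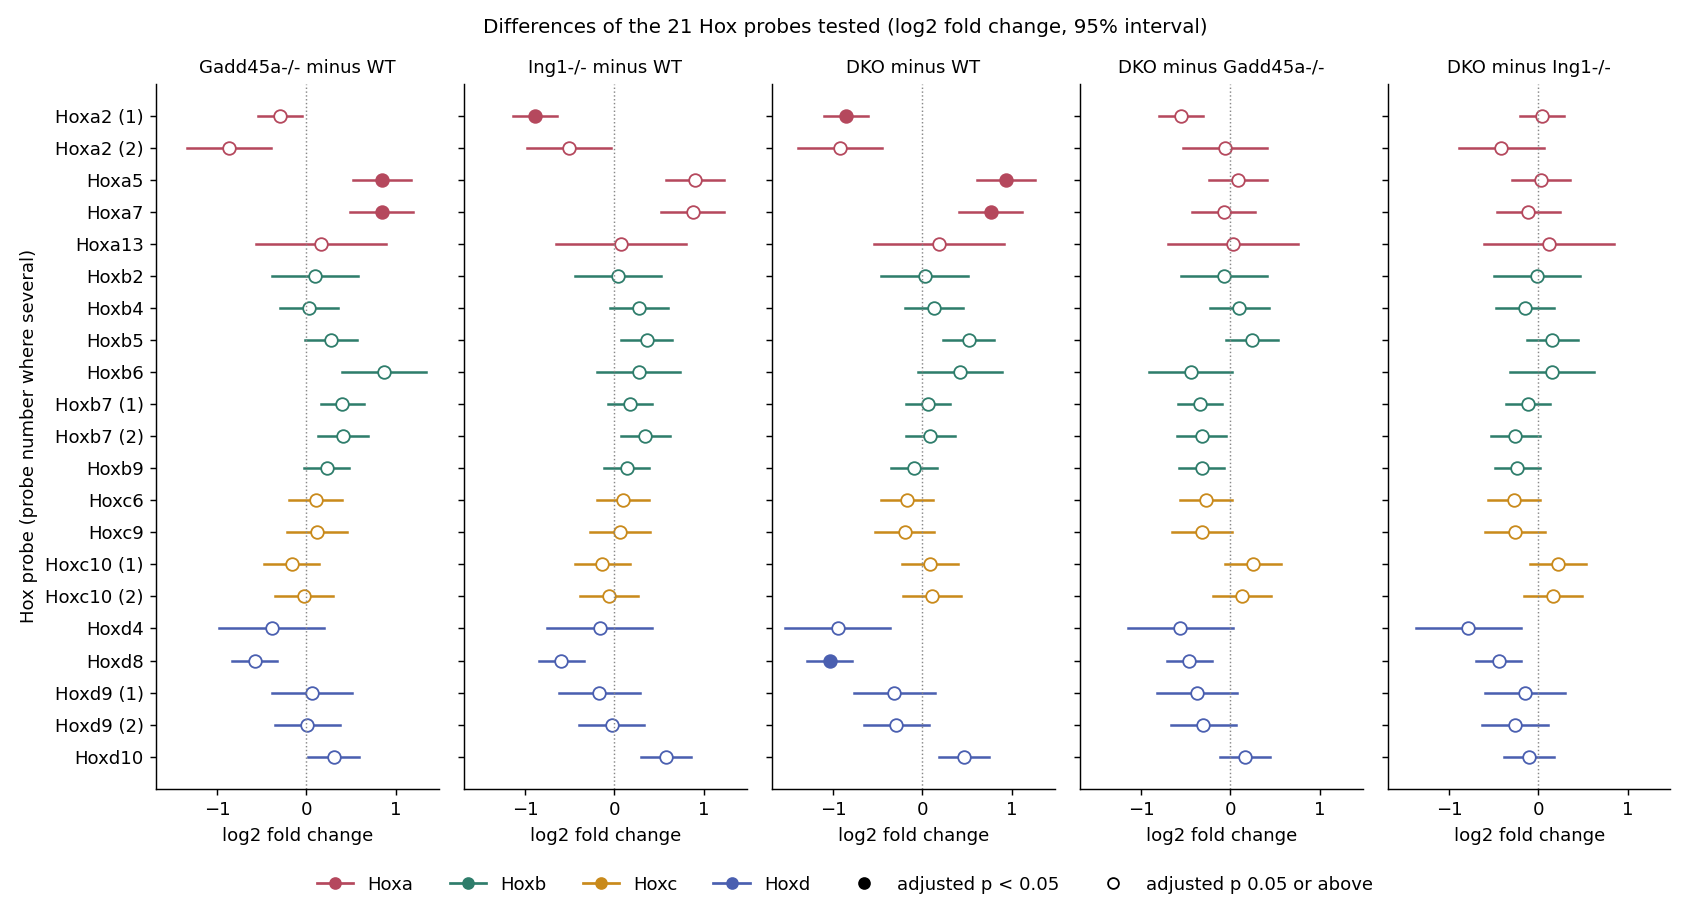
Log2 fold change (horizontal, with its 95% interval) of the 21 Hox probes tested (vertical), in 5 comparisons, each as the first-named genotype minus the second, coloured by cluster. Filled points passed an adjusted p of 0.05 (limma), and for Hoxa2, Hoxa13, Hoxd9 probe 1 and Hoxd10 the fitted values include arrays in the background. Filled points appear in the 3 comparisons with WT and in neither comparison of DKO with a single knockout.

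Hoxa5 and Hoxa7 were brighter in every knockout array than in both WT arrays. Hoxa5, which patterns the cervical and upper thoracic skeleton and the lung, read 7.97 and 8.19 in Gadd45a-/-, 8.27 and 8.01 in Ing1-/-, 8.19 and 8.14 in DKO, and 7.16 and 7.30 in WT (log2 normalized intensity). All 6 knockout arrays lay together, and both WT arrays lay below every one of them. The log2 fold change of Hoxa5 was 0.84 ± 0.14 in Gadd45a-/- (SE; limma adjusted p = 0.0347), 0.91 ± 0.14 in Ing1-/- (0.0504, just short of a call) and 0.93 ± 0.14 in DKO (0.0120), a level 1.80 to 1.91 times that in WT. Hoxa7, a trunk gene of the thoracic region, read 9.23 and 8.86 in Gadd45a-/-, 9.05 and 9.11 in Ing1-/-, 9.07 and 8.86 in DKO, and 8.16 and 8.25 in WT. Again all knockout arrays lay above both WT arrays. Its log2 fold change was 0.84 ± 0.15 in Gadd45a-/- (limma adjusted p = 0.0482), 0.88 ± 0.15 in Ing1-/- (0.0710, not called) and 0.76 ± 0.15 in DKO (0.0365). Hoxa6, which lies between these genes, was above background on no array. The annotated span of Hoxa3 runs over Hoxa4, Hoxa5 and Hoxa6, and the 4 Hoxa3 probes were above background on no array.

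The Hoxa5 and Hoxa7 calls hung on single arrays. Leaving out either array of WT, Gadd45a-/- or DKO ended the Hoxa5 call in Gadd45a-/- (limma adjusted p 0.0824 to 0.182). In DKO it was lost without WT replicate 1 (0.0670), DKO replicate 1 (0.0983) or DKO replicate 2 (0.0891). The Hoxa7 call in Gadd45a-/- was lost whichever of the 8 arrays was left out (limma adjusted p 0.0740 to 0.208). In DKO it was lost without either WT, Ing1-/- or DKO array (0.0662 to 0.230) and kept without either Gadd45a-/- array. With 1 array of a genotype left out, the lone array was assumed to vary like the others. Over 19 alternatives the log2 fold change of Hoxa5 stayed between 0.64 and 0.95 in Gadd45a-/- and between 0.71 and 1.00 in DKO. That of Hoxa7 stayed between 0.65 and 1.03 in Gadd45a-/- and between 0.56 and 0.87 in DKO. The summed fibroblast markers were lower, and the summed epithelial and neural markers, Col2a1 and Emcn higher, in every knockout array than in WT. Some difference was built into the selection of Emcn and of the epithelial markers. Single fibroblast, epithelial and neural markers went against their sums. The summed cartilage markers, Col2a1 among them, were higher in both Gadd45a-/- arrays but overlapped WT in Ing1-/- and DKO. The part of these markers in the Hoxa5 and Hoxa7 differences was not tested.

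**Figure D3:**
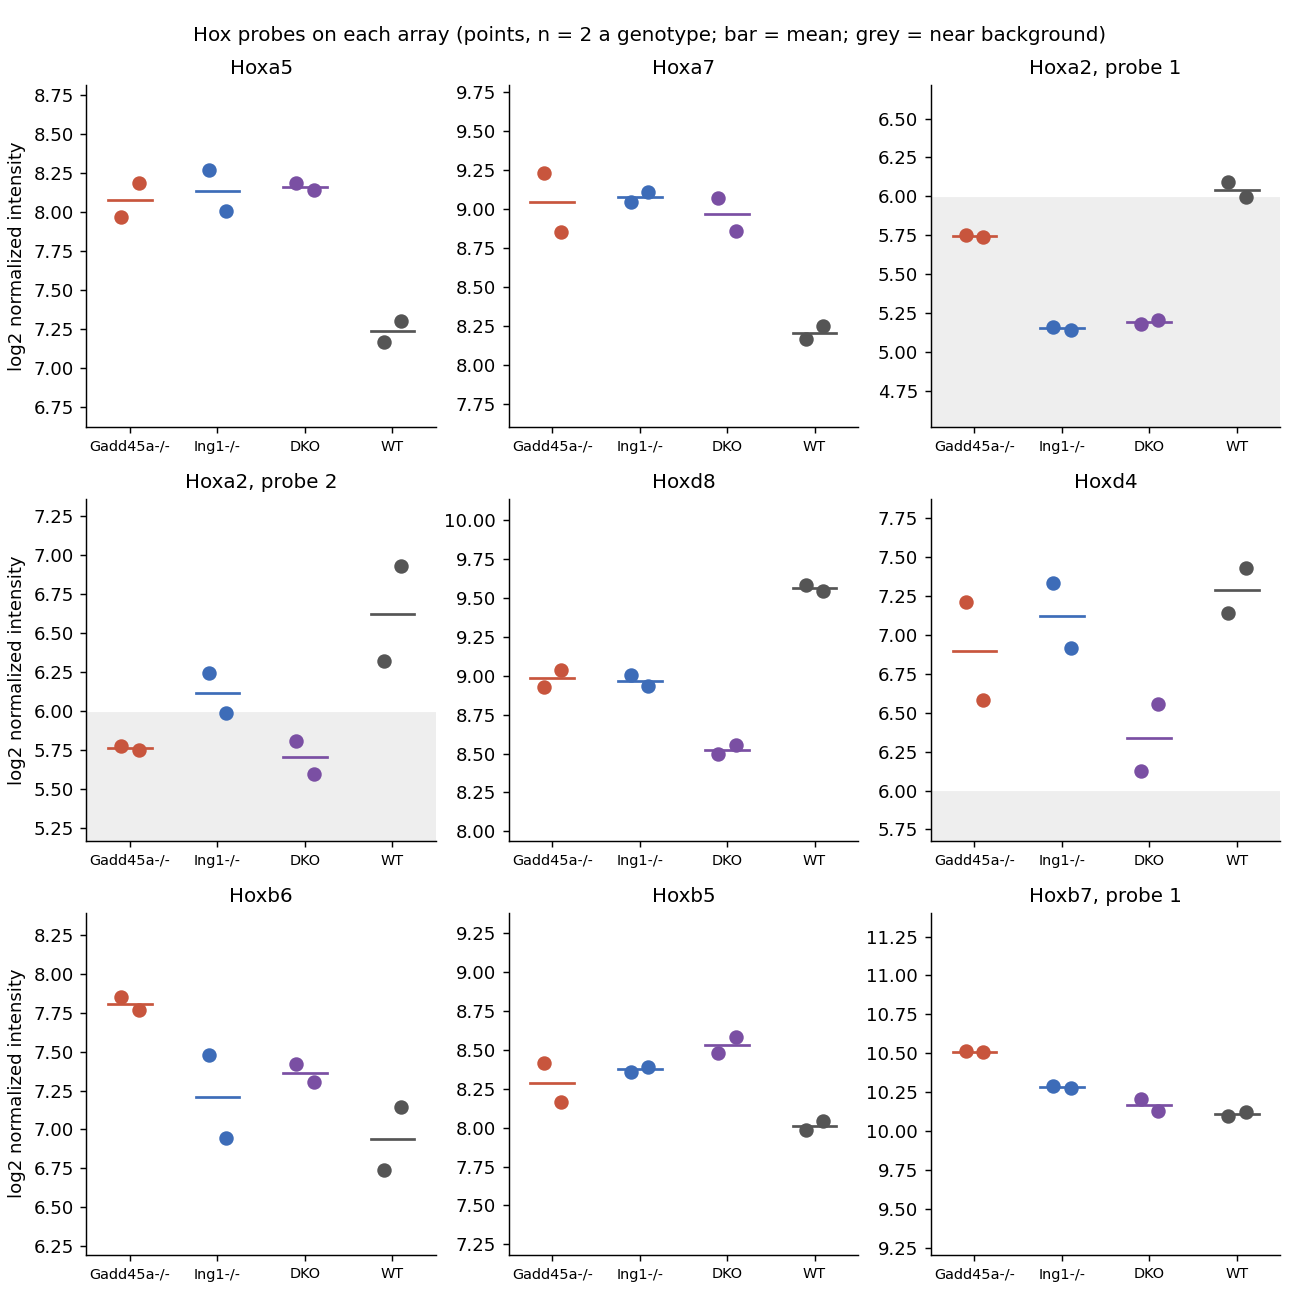
Log2 normalized intensity (vertical) of 9 Hox probes on each array, with the genotypes along the horizontal axis, points for the 2 arrays of a genotype and bars for their mean. Grey marks levels under 5.99, the highest of the lowest signals above background over the arrays. Each panel spans the same height, and Hoxa5 and Hoxa7 lie higher and Hoxd8 lower in every knockout array than in WT.

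Hoxa2, near the other end of cluster a, was dimmer in the knockouts, at levels close to background. Probe 1 read 5.75 and 5.74 in Gadd45a-/-, 5.16 and 5.14 in Ing1-/-, 5.18 and 5.20 in DKO, and 6.09 and 5.99 in WT. Only the 2 WT arrays were above background, and the probe entered the test through them alone, so some difference was built into its selection. It was lower in Ing1-/- by at least 1.11-fold (limma adjusted p = 0.0204) and in DKO by at least 1.07-fold (0.00585), each bound set by the lowest signals above background on the dimmer arrays. In Gadd45a-/- it was lower by at least 1.11-fold and was not called (limma adjusted p = 0.298). Probe 2 for Hoxa2 read 5.77 and 5.75 in Gadd45a-/-, 6.24 and 5.99 in Ing1-/-, 5.81 and 5.60 in DKO, and 6.32 and 6.93 in WT. It lay lower in all 6 knockout arrays than in WT, by at least 1.66-fold in Gadd45a-/- (limma adjusted p = 0.116) and at least 1.61-fold in DKO (0.0520), without passing the threshold. The probe 1 call in Ing1-/- was lost without any 1 of the 8 arrays (limma adjusted p 0.0543 to 0.163), and in DKO without DKO replicate 1 (0.0620) or 2 (0.0542). Hoxa13, a gene of the digits, read 6.66 and 5.78 in Gadd45a-/-, 6.17 and 6.09 in Ing1-/-, 6.07 and 6.42 in DKO, and 5.72 and 6.39 in WT, with overlapping genotypes.

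Hoxd8 was lower in DKO than in WT, the 1 Hox call kept in every alternative run. This gene of trunk mesoderm read 8.93 and 9.04 in Gadd45a-/-, 9.00 and 8.94 in Ing1-/-, 8.49 and 8.56 in DKO, and 9.58 and 9.54 in WT. The 4 single-knockout arrays lay together, the DKO arrays lay below them, and the WT arrays lay above, with no overlap between these 3 tiers. In DKO Hoxd8 fell by 1.04 ± 0.11 on the log2 scale (SE; limma adjusted p = 0.00295), a WT level 2.05 times that of DKO. The log2 fold change was -0.58 ± 0.11 in Gadd45a-/- (0.0557) and -0.59 ± 0.11 in Ing1-/- (0.0860), neither past the threshold. The DKO call was kept in 19 of 19 alternatives, with a limma adjusted p up to 0.0396 and a log2 fold change between -1.23 and -0.92. Among these alternatives, an adjusted p under 0.1 could not lose a call made at 0.05, and several left the log2 fold change unchanged by construction. Against the single knockouts, DKO differed in Hoxd8 by -0.46 (95% interval -0.71 to -0.20, limma adjusted p = 0.194) and by -0.44 (-0.70 to -0.19, adjusted p = 0.139), not called.

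The other Hoxd genes did not pass the test. Hoxd4, which helps set the identity of the upper cervical vertebrae, read 7.21 and 6.58 in Gadd45a-/-, 7.33 and 6.91 in Ing1-/-, 6.12 and 6.55 in DKO, and 7.14 and 7.43 in WT. Its DKO arrays lay below all 6 others, with a log2 fold change against WT of -0.95 ± 0.25 (limma adjusted p = 0.0993). The annotated span of Hoxd3 contains Hoxd4, and the Hoxd3 probe was above background on no array. Hoxd9 probe 2 read 6.52 and 6.35 in Gadd45a-/-, 6.35 and 6.44 in Ing1-/-, 6.07 and 6.20 in DKO, and 6.22 and 6.63 in WT, the DKO arrays again lowest. Hoxd10 read 6.07 and 5.90 in Gadd45a-/-, 6.22 and 6.30 in Ing1-/-, 6.20 and 6.10 in DKO, and 5.62 and 5.75 in WT. It went the other way from Hoxd8, and it entered the test through the knockout arrays alone. Its mean was higher by at least 1.04-fold in Gadd45a-/- (limma adjusted p = 0.363), 1.25-fold in Ing1-/- (0.129) and 1.16-fold in DKO (0.0881). These bounds leave out the spread between arrays. Both DKO arrays lay below both WT arrays for 4 of the 5 Hoxd probes, beside 22.1% of all probes. They lay above them for Hoxd10, beside 23.7%. Of the 4 probes 2 were for Hoxd9, and its probe 1 was above background on no DKO array. Hoxd10 was above background on no WT array.

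The Hoxb genes, measured across most of their cluster, had no difference between genotypes that passed the test. Not all were small, since Hoxb6 in Gadd45a-/- differed from WT as much as the called Hoxa5 and Hoxa7, with a larger SE. Hoxb7, which is expressed in trunk mesoderm, read 10.51 and 10.51 in Gadd45a-/-, 10.29 and 10.28 in Ing1-/-, 10.21 and 10.13 in DKO, and 10.10 and 10.12 in WT with probe 1. The arrays of each genotype lay close together, highest in Gadd45a-/-. Its log2 fold change in Gadd45a-/- was 0.40 ± 0.10 with probe 1 (limma adjusted p = 0.152) and 0.41 ± 0.12 with probe 2 (0.198). Hoxb6, a gene of lateral plate mesoderm, read 7.85 and 7.77 in Gadd45a-/-, 7.48 and 6.94 in Ing1-/-, 7.42 and 7.31 in DKO, and 6.74 and 7.14 in WT. The Gadd45a-/- arrays were the highest, with a log2 fold change of 0.87 ± 0.20 (limma adjusted p = 0.113), and Ing1-/- overlapped WT. Hoxb5, which places the shoulder girdle, read 8.41 and 8.16 in Gadd45a-/-, 8.36 and 8.39 in Ing1-/-, 8.48 and 8.58 in DKO, and 7.98 and 8.04 in WT. Every knockout array lay above WT, and in DKO the log2 fold change was 0.52 ± 0.12 (limma adjusted p = 0.0686).

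For Hoxb4, known in the expansion of blood stem cells, the log2 fold change lay between 0.03 and 0.28 in the 3 knockouts. It lay between 0.03 and 0.10 for Hoxb2, a hindbrain gene, and between -0.10 and 0.23 for Hoxb9, a gene of the rib cage. The log2 fold change was positive for 7 of 7 Hoxb probes in Gadd45a-/-, 7 of 7 in Ing1-/- and 6 of 7 in DKO. With median scaling in place of quantile normalization these counts were 5, 4 and 2 of 7, while that scaling moved the median of all probes by -0.18 in Ing1-/- and by -0.16 in DKO. Relative to the median of all probes, the Hoxb median was 0.27 in Gadd45a-/-, 0.26 in Ing1-/- and 0.08 in DKO with quantile normalization, and 0.26, 0.25 and 0.05 with median scaling.

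No Hoxc probe was called in any comparison. Hoxc6, a gene of thoracic and mammary development, read 11.74 and 11.47 in Gadd45a-/-, 11.59 and 11.61 in Ing1-/-, 11.37 and 11.30 in DKO, and 11.55 and 11.45 in WT. Gadd45a-/- overlapped WT, the Ing1-/- arrays lay just above it, and the DKO arrays were the lowest, with a log2 fold change of -0.17 (95% interval -0.46 to 0.12). Hoxc9, which sets thoracic motor neuron identity, had a log2 fold change of 0.12 in Gadd45a-/- (-0.22 to 0.45), 0.06 in Ing1-/- (-0.27 to 0.39) and -0.20 in DKO (-0.53 to 0.14). For Hoxc10, a lumbar and hindlimb gene, the estimates of 2 probes lay between -0.17 and 0.11, and all 6 intervals against WT included 0.

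Comparing DKO with each single knockout addressed whether losing both genes moved the Hox genes beyond losing 1. No Hox probe was called by limma in DKO against Gadd45a-/- (where 0.39% of all probes were called) or in DKO against Ing1-/- (1.11%). At an unadjusted p under 0.05 there were 5 of 21 Hox probes in DKO against Gadd45a-/-, beside 10.1% of all probes, and 2 of 21 in DKO against Ing1-/-, beside 11.7%, the second count being no higher than the background. The interaction, (DKO minus Ing1-/-) minus (Gadd45a-/- minus WT), which asks whether the effects of the labelled Gadd45a knockout differed with and without Ing1, called no Hox probe either (0.148% of all probes were called). At an unadjusted p under 0.05 it gave 7 of 21 Hox probes, beside 9.36% of all probes. For Hoxa5 the DKO differed by 0.09 from Gadd45a-/- (95% interval -0.24 to 0.41) and by 0.03 from Ing1-/- (-0.30 to 0.35), intervals that hold differences of either sign. For Hoxa7 the differences were -0.08 (-0.43 to 0.28) and -0.11 (-0.47 to 0.24). The interaction was -0.82 ± 0.20 for Hoxa5 (limma adjusted p = 0.257) and -0.95 ± 0.22 for Hoxa7 (0.234), with each single knockout near the DKO level, and neither passed the threshold. For Hoxd8 it was 0.13 ± 0.15 (0.838).

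Across the 21 probes the median log2 difference was -0.27 in DKO against Gadd45a-/- and -0.11 in DKO against Ing1-/-, where the median of all probes was -0.01 in both. Without overlap between the genotypes, 11 probes were lower and 5 higher in DKO than in Gadd45a-/-, beside 22.8% and 20.9% of all probes. In DKO against Ing1-/- 10 were lower and 3 higher, beside 23.3% and 21.2%. The mean of Hoxb7 was lower in DKO than in Gadd45a-/- by 0.34 with probe 1 and 0.32 with probe 2, and Hoxb9 by 0.32, with adjusted p-values of 0.319, 0.401 and 0.372 (limma). The mean of all 5 Hoxd probes was lower in DKO than in Ing1-/-, also with median scaling.

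Within the paralog groups of the called genes, the other tested members were not called. In group 5, Hoxa5 was called higher in Gadd45a-/- and DKO, while Hoxb5 had log2 fold changes of 0.28 ± 0.12 and 0.52 ± 0.12 there and was not called. In group 7, Hoxa7 was called, and Hoxb7 had a log2 fold change of 0.40 in Gadd45a-/- but 0.06 in DKO with probe 1. In group 2, Hoxa2 was called lower, while Hoxb2 read 9.37 and 9.60 in Gadd45a-/-, 9.14 and 9.72 in Ing1-/-, 9.41 and 9.42 in DKO, and 9.21 and 9.57 in WT, all genotypes overlapping WT. In group 4, where no gene was called, Hoxd4 was lower in both DKO arrays than in WT, and Hoxb4 overlapped WT there. The differences between paralogs themselves were not tested. Group 8 had 1 gene in the test, Hoxd8, since Hoxb8 and Hoxc8 were above background on no array.

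The Hoxa cluster shares chromosome 6 with Gadd45a, which is 14.8 Mb away, and the Ing1 gene lies on chromosome 8. Within 20 Mb of Gadd45a 206 probes were tested. Of the 199 that belonged to neither Hox genes nor Gadd45a, 3 were called in Gadd45a-/- against WT (1.51%, beside 1.33% of all probes), 0 in Ing1-/- (0.417% of all probes), 9 in DKO (4.52%, beside 3.8%) and 3 in DKO against Ing1-/- (1.51%, beside 1.11%). The part of the shared chromosome in the Hoxa differences was not tested.

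**Figure D4:**
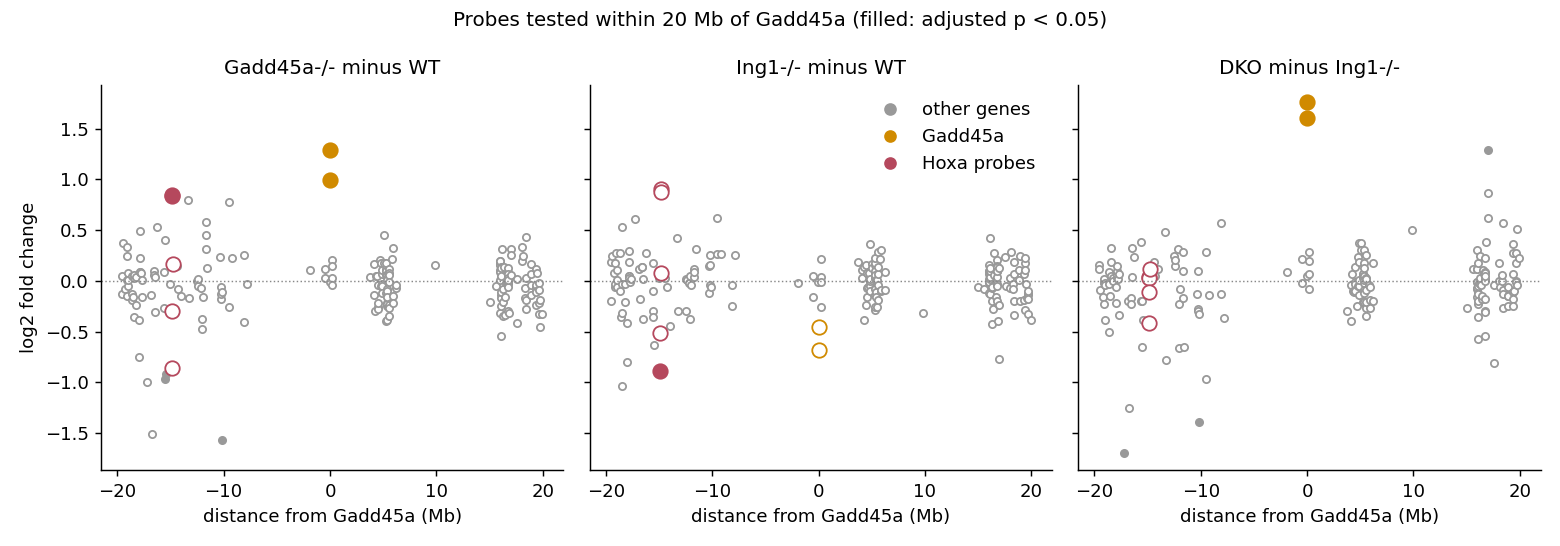
Log2 fold change (vertical) of the 206 probes tested within 20 Mb of Gadd45a against their distance from it in Mb (horizontal), in 3 comparisons. Hoxa probes, Gadd45a and other genes have their own colours, and filled points passed an adjusted p of 0.05 (limma). Both Gadd45a probes are higher in the arrays labelled Gadd45a-/- than in WT and in DKO than in Ing1-/-, and the Hoxa probes lie 14.8 Mb to the left, spread above and below 0.

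Among other genes within 2 Mb of the clusters, called differences lay beside clusters a, b and c. Beside cluster a, 2 of 18 probes were lower in Gadd45a-/- (1.33% of all probes were called), and 3 were lower and 1 higher in DKO (3.8% of all probes). The 2 in Gadd45a-/- were those of Cbx3, a heterochromatin protein, and Snx10, a sorting nexin. Probe 2 for Cbx3 read 9.07 and 9.17 in Gadd45a-/-, 9.75 and 9.71 in Ing1-/-, 8.98 and 9.16 in DKO, and 10.18 and 9.99 in WT. It was lower than WT in every knockout array and lowest where the label includes Gadd45a loss, with a log2 fold change of -0.96 in Gadd45a-/- (limma adjusted p = 0.0136), -0.35 in Ing1-/- (0.356) and -1.01 in DKO (0.00572). The other tested Cbx3 probe went differently and was not called, with a log2 fold change of 0.40 in Gadd45a-/-, 0.17 in Ing1-/- and -0.03 in DKO, so the 2 probes of Cbx3 disagree. Snx10 had a log2 fold change of -0.92 in Gadd45a-/- (0.0209), -0.63 in Ing1-/- (0.129) and -1.02 in DKO (0.00705). In DKO the toll-like receptor partner Tril was also lower (-1.08, limma adjusted p = 0.00880) and the transcription factor Creb5 higher (0.90, 0.0184). Beside cluster b, 1 of 65 probes was called in DKO against WT (beside 3.8% of all probes), that of the neurotrophin receptor gene Ngfr (-0.95, 0.010). Beside cluster c 3 of 45 were called higher in DKO (beside 3.8% of all probes), those of Ppp1r1a (1.09), Pde1b (0.79) and Sp7, the osteoblast factor. Sp7 was above background on no WT or Ing1-/- array, so some difference was built into its selection. Beside cluster d 0 of 22 probes were called in any of the 5 comparisons (limma). With 0.39% to 3.8% of all probes called in these comparisons, 0 of 22 says little. Leaving out 1 array ended the Gadd45a-/- calls of Cbx3 without WT replicate 1 or either Gadd45a-/- array (limma adjusted p 0.0643 to 0.113), and of Snx10 without either WT, Gadd45a-/- or DKO array (0.0561 to 0.122). In DKO against WT, Cbx3 (0.0617) and Tril (0.0827) were lost without DKO replicate 1, and Snx10 without either DKO array (0.0532 to 0.0707). Creb5 (0.0510 to 0.142) and Ppp1r1a (0.0927 to 0.134) were lost without WT replicate 1 or either DKO array, Ngfr without WT replicate 1 or DKO replicate 1 (0.0599 to 0.0907), and Sp7 without WT replicate 1 (0.0570). Pde1b was lost without WT replicate 1 or either Ing1-/- or DKO array (0.0530 to 0.206).

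No gene of the 3 lists of proteins that work with or on the Hox clusters was called. Each gene was read by its tested probe with the highest mean. Of the cofactors in the PBX, MEIS and PREP families, which bind DNA with Hox proteins, 0 of 7 measured genes were called by limma in any comparison, with 0, 3 and 1 at an unadjusted p under 0.05 in Gadd45a-/-, Ing1-/- and DKO against WT, where 12.4%, 10.7% and 15.7% of all probes had such a p. Of the Polycomb group genes, 0 of 23 were called by limma, with 2, 1 and 2 at that p in the same comparisons. Of the Trithorax group and H3K27 demethylase genes, 0 of 13 were called, with 2, 1 and 0. The median log2 fold change in DKO against WT was -0.09 for the cofactors, 0.04 for Polycomb and -0.12 for Trithorax genes, beside 0.01 for all probes.

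Retinoic acid is a classical inducer of Hox genes, and 6 of 18 genes of its pathway were measured. Aldh1a3, which makes retinoic acid, read 9.88 and 9.76 in Gadd45a-/-, 10.52 and 10.38 in Ing1-/-, 10.66 and 10.56 in DKO, and 9.64 and 9.68 in WT with probe 1. It was higher in the genotypes labelled Ing1-/- and DKO, with a log2 fold change of 0.79 in Ing1-/- (limma adjusted p = 0.0412) and 0.95 in DKO (0.00520), and of 0.16 in Gadd45a-/- (0.650). Crabp2, which carries retinoic acid to its receptors, was above background in both arrays of Gadd45a-/- and WT and on no Ing1-/- or DKO array. It was called lower in Ing1-/- (limma adjusted p = 0.0214) and DKO (0.0114). Since it entered the test through Gadd45a-/- and WT alone, some difference was built into its selection. The receptor genes measured, Rarg and Rxrb, were not called. The Aldh1a3 call in Ing1-/- was lost whichever array was left out (limma adjusted p 0.0815 to 0.243), and in DKO it was lost without DKO replicate 1 (0.0596). The Crabp2 call in Ing1-/- was lost without either WT, Ing1-/- or DKO array (0.0633 to 0.163), and in DKO without WT replicate 1 or either DKO array (0.0537 to 0.104). Probe 2 for Aldh1a3 had a log2 fold change of 0.46 in Ing1-/- (limma adjusted p = 0.506) and 1.11 in DKO (0.0317).

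Transcription factors outside the Hox clusters that mark position or tissue in the embryo were measured for 12 of 43 genes listed, and 4 were called higher and 1 lower in DKO against WT (limma). In Gadd45a-/- 1 was called higher and 1 lower, and in Ing1-/- 0 were called, with 4 at an unadjusted p under 0.05 (beside 10.7% of all probes). Over all probes 3.8% were called in DKO and 1.33% in Gadd45a-/-. Of the genes called higher, Dlx2 and Lhx9 entered the test only through genotypes in which they were high, so a difference was built into their selection. Tbx4, a hindlimb factor, read 6.69 and 6.52 in Gadd45a-/-, 6.45 and 6.67 in Ing1-/-, 7.47 and 7.41 in DKO, and 6.01 and 5.98 in WT. It was highest in both DKO arrays, with a log2 fold change of 1.44 against WT (limma adjusted p = 0.00121), 0.83 against Gadd45a-/- (0.0488) and 0.88 against Ing1-/- (0.0250). Meox1, a somite factor, was higher in DKO (1.14, 0.0335), and Msx1, a factor of limb and facial mesenchyme, was lower in DKO (-1.14, 0.0478) and in Gadd45a-/- (-1.49, 0.0335), where 1 array was above background. Dlx2 and the limb factor Lhx9 were called higher in DKO, and Lhx9 also in Gadd45a-/-, but neither was above background on a WT array. The Tbx4 and Lhx9 probe 2 calls against WT were kept whichever array was left out. The Tbx4 call against Gadd45a-/- was lost without any 1 array (limma adjusted p 0.0611 to 0.350), and against Ing1-/- without either Ing1-/- or DKO array (0.102 to 0.188). The Meox1 call was lost without WT replicate 2 or either Gadd45a-/- or DKO array (0.0593 to 0.180), and the Dlx2 call without either WT array or DKO replicate 2 (0.0509 to 0.0699). The Msx1 call was lost in DKO without either WT, Ing1-/- or DKO array (0.0563 to 0.261), and in Gadd45a-/- without any array other than Gadd45a-/- replicate 2 (0.0669 to 0.126).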

How the data were processed

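RNA purified on columns with DNase treatment was made into biotinylated cRNA, per the labels' protocols. The deposited non-normalized table holds a mean intensity and a detection p-value for every probe, per the file headers. GenomeStudio 2011.1 is named in the submitters' processing notes. The authors' own processed intensity values, of unknown scaling and with 34.5% below 0, served only as an alternative.

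Raw intensities went through neqc in limma 3.58.1 under R 4.3.3, which inferred negative controls from the detection p-values, added an offset of 16, applied quantile normalization and took log2. Testing was limited to 14867 of 45281 probes (32.8%), those whose detection p fell below 0.01 in each array of 1 genotype or more. The limma model had a mean for every genotype over the 8 arrays (residual df 4, prior df 3.79), with Benjamini-Hochberg adjustment inside each of 6 contrasts, and was tested on simulated data. Where a genotype had no array above background, a difference is a bound on means, without sampling error. Symbols come from the platform annotation and positions from RefSeq (GRCm38.p6). The number of arrays limits the precision.

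The Hox genes and the other lists were chosen with earlier results of these data known. By rule, values per array are given for each called Hox probe and the brightest tested probe of each cluster, and other Hox values were added after they were seen. From each list up to 4 called probes per contrast are named, with the called genes within 2 Mb of a cluster. Alternatives were other background corrections and scalings, detection filters, variance settings, a replicate block, leaving out each array and an adjusted p under 0.1. That looser threshold cannot lose a call. Detection filters, variance settings and the replicate block leave the log2 fold change of a probe unchanged. Deviations of same-numbered arrays correlated at -0.09 to 0.28, so the numbers were not taken to pair arrays. Protein sequences were not used here.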

Additional observations from a re-analysis of the deposited data

Results flagged for a closer look

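Of the genes named above, 2 had a called interaction, (DKO minus Ing1-/-) minus (Gadd45a-/- minus WT). Among the 5 measured macrophage and blood markers, not named above, limma called 4 lower in it, beside 0.148% of all probes. The median of the 5 was -2.20 on the log2 scale. Col2a1, a cartilage collagen gene, read 10.02 and 10.07 in Gadd45a-/-, 7.45 and 7.60 in Ing1-/-, 9.10 and 9.35 in DKO, and 6.26 and 6.21 in WT with probe 1. Its interaction was -2.11 on the log2 scale (limma adjusted p = 0.0122). Probes 2 and 3 for Col2a1 gave -1.51 and -1.40 and were not called (limma adjusted p = 0.176 and 0.201). Lhx9, a limb transcription factor, read 6.82 and 6.99 in Gadd45a-/-, 5.74 and 5.61 in Ing1-/-, 6.30 and 6.27 in DKO, and 5.02 and 4.97 in WT with probe 2. Its fitted interaction was -1.31 (limma adjusted p = 0.0433). The Ing1-/- and WT arrays were not above background for this probe, so the fitted value rests in part on background readings and does not show that the effects differed. Probe 1 for Lhx9 gave -1.05 (limma adjusted p = 0.242), not called.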

How the results depend on the processing

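With 2 arrays a genotype, most Hox calls lay near the threshold. The main count of 2 called Hox probes in Gadd45a-/- against WT became 4 with normexp and offset 50, 4 with eBayes trend and robust settings, 1 with median scaling, 1 with the authors' processed values, 0 with a detection p under 0.05, 0 with no detection filter, 0 with array weights, 0 with a replicate block, and 0 to 1 without 1 array. In Ing1-/- against WT the count of 1 became 3 with normexp and offset 50, 2 with neqc and offset 50, 0 with no detection filter, 3 with trend and robust settings, 4 at an adjusted p under 0.1, and 0 to 0 without 1 array. In DKO against WT the count of 4 became 8 at an adjusted p under 0.1 and 1 to 4 without 1 array. The fall without a detection filter comes with 45281 probes tested, and the cause of the other moves was not tested. Counts in DKO against either single knockout and in the interaction were 0 in all 19 alternatives. Hox genes above background ranged over 13 to 19 in Gadd45a-/-, 13 to 19 in Ing1-/-, 12 to 21 in DKO and 13 to 18 in WT with other detection thresholds. Over the whole array, called probes ranged over 37 to 339 in Gadd45a-/- against WT (198 in the main setting), 7 to 148 in Ing1-/- (62), 140 to 903 in DKO (565), 4 to 123 in DKO against Gadd45a-/- (58) and 5 to 304 in DKO against Ing1-/- (165). Median scaling ended the Hoxa5 calls in Gadd45a-/- (limma adjusted p = 0.149) and DKO (0.0846) and the Hoxa7 calls in Gadd45a-/- (0.166) and DKO (0.244). Hoxa7 in DKO was also lost with a detection p under 0.05 (0.0528) and no detection filter (0.0970), and in Gadd45a-/- with the authors' values (0.0501). In Gadd45a-/- Hoxa5 and Hoxa7 were lost with a detection p under 0.05 (0.0542 and 0.0709), no detection filter (0.0918 and 0.124), the replicate block (0.0599 and 0.0631) and array weights (0.0555 and 0.0862). Hoxa2 probe 1 was lost in DKO with trend and robust settings (0.0795), and in Ing1-/- with those (0.162), normexp (0.0954), neqc with offset 50 (0.0677) and no detection filter (0.0570). No called Hox difference changed sign in the alternatives run; the Lhx9 and Col2a1 interactions were not run under them. Hoxa2, Hoxa13, Hoxd10, Lhx9, Crabp2, Dlx2, Msx1 and others have no value where probes had to be above background on all 8 arrays.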
